A study of Mus musculus with 6 samples.

Results

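Aminoacyl-tRNA synthetases are the enzymes that join each amino acid to its tRNA. The 39 genes described here encode 20 cytosolic synthetases or synthetase subunits, 16 mitochondrial synthetases and 3 scaffold proteins of the cytosolic multisynthetase complex. They were chosen by name, and each was read from the probe set that the array annotation pairs with its symbol. Of the 39 genes, 37 were measured, among 19933 genes in all. They comprised 18 of the 20 cytosolic genes, all 16 mitochondrial genes and all 3 scaffold genes. Aars shares its probe set with the gene Exosc6, so no value is given for it, and Dars was not analysed here.

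The arrays compared MR13 cells, which outlived methotrexate, with their parental line, to describe the transcripts of tumor cells that persist after a chemotherapy drug. MR13 (3 arrays) is 1 line selected from 4T1, a mammary carcinoma line of BALB/c mice, with methotrexate (MTX), a folate antagonist that blocks nucleotide synthesis. WTR- (3 arrays) is untreated 4T1. The sample labels give MTX at 13 µg/ml for up to 2 weeks, whereas the concentration in the study's text is different and the exposure longer, and survivors were then moved to normal medium. Whether the drug was still in the medium at RNA extraction is not stated in the labels. RNA came from triplicate wells of each line, so the p values rest on variation among wells of 1 selected line and say nothing of how other selections would vary.

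Each synthetase recognizes 1 amino acid and the tRNAs that carry it, and the charged tRNAs are then brought to the ribosome by elongation factors. Mammalian cells keep separate nuclear genes for most of the cytosolic and mitochondrial enzymes, and the mitochondrial proteins, whose symbols end in 2, are imported to translate the few messages of the mitochondrial genome. Gars and Kars are exceptions, since each makes both forms from a single gene. Several cytosolic enzymes are held together with the scaffold proteins AIMP1, AIMP2 and EEF1E1 in the multisynthetase complex. Uncharged tRNA activates the kinase GCN2 (Eif2ak4), which phosphorylates eIF2 and favours translation of ATF4, and ATF4 is known to induce asparagine synthetase, amino acid transporters and many cytosolic tRNA synthetases through C/EBP-ATF response elements.

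All values are log2 array signals as normalized by the authors, and a difference is MR13 minus WTR-, with its standard error (SE). A gene was called at a Benjamini-Hochberg adjusted p under 0.05, over all genes, in limma's moderated test. Signals of different genes are not comparable on these arrays, so only differences between the lines are set side by side. The Pearson correlation across genes was 0.9982 to 0.9988 for arrays of the same line and 0.9796 to 0.9819 for arrays of different lines. Of 8 epithelial markers, 7 were lower in MR13. The mean log2 signal of all 8 was 8.82 to 8.96 in MR13 arrays and 11.78 to 11.84 in WTR- arrays. The sum of the 8 log2 signals was 70.6 to 71.6 in MR13 and 94.3 to 94.7 in WTR-. The median difference of the 8 was -3.53, and the largest were in Cldn4 (-5.27), Krt7 (-4.52) and Epcam (-4.3). The epithelial keratin Krt8 was the 1 marker of the 8 not called. It was bright in both, at 13.49, 13.61 and 13.49 in MR13 and 13.46, 13.42 and 13.34 in WTR-. Of 9 myeloid markers 3 were higher in MR13 (Cd68, Ly6g and S100a8), while the leukocyte gene Ptprc stayed low, at 5.18 to 5.29 in MR13 and 5.16 to 5.21 in WTR-. The other 6 were not called, and 3 of the 9 differences lay below 0: Csf1r (-0.28), Itgam (-0.12) and S100a9 (-0.1). The median difference of the 9 was 0.07. Ly6g, at 4.47 to 5.96, was below the array medians on every array. The sum of the 9 log2 signals was 52.0 in every MR13 array and 49.2 to 49.8 in WTR- arrays. Of 7 fibroblast markers 2 were higher (Pdgfra and Dcn), and the sum of the 7 log2 signals was 46.7 to 47.7 in MR13 and 42.9 to 43.6 in WTR-. None of 6 lymphocyte or 5 endothelial markers was called. The part of these marker differences in the results below was not tested, and in bulk RNA fewer cells of a kind and less RNA per cell cannot be told apart.

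Transcripts for tRNA charging were lower in MR13 across both compartments. Of the 37 measured genes, 27 were called lower (73.0%), 1 was called higher and 9 were not called. Over all genes, 20.6% were called lower and 17% higher. The median difference of the 37 genes was -0.44, against 0.01 over all genes, and 34 of them lay below 0. For 29 genes all 3 MR13 arrays lay below all 3 WTR- arrays, a pattern seen in 25.2% of all genes. In 1 gene all MR13 arrays lay above, and in 7 the lines overlapped. Most of the differences were modest. The 27 called genes fell by 0.21 to 1.01 on the log2 scale, 11 of the 37 were called and at least 1.5-fold lower (6.36% of all genes), and only Mars2 was called at 2-fold or more. With the dimmest 30% of genes left out, all 37 were retained and 29 of them were called lower, against 30.2% of the genes then tested. The lowest signal of any member on any array was 7.24, above the array medians of 6.57 to 6.62.

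**Figure D1:**
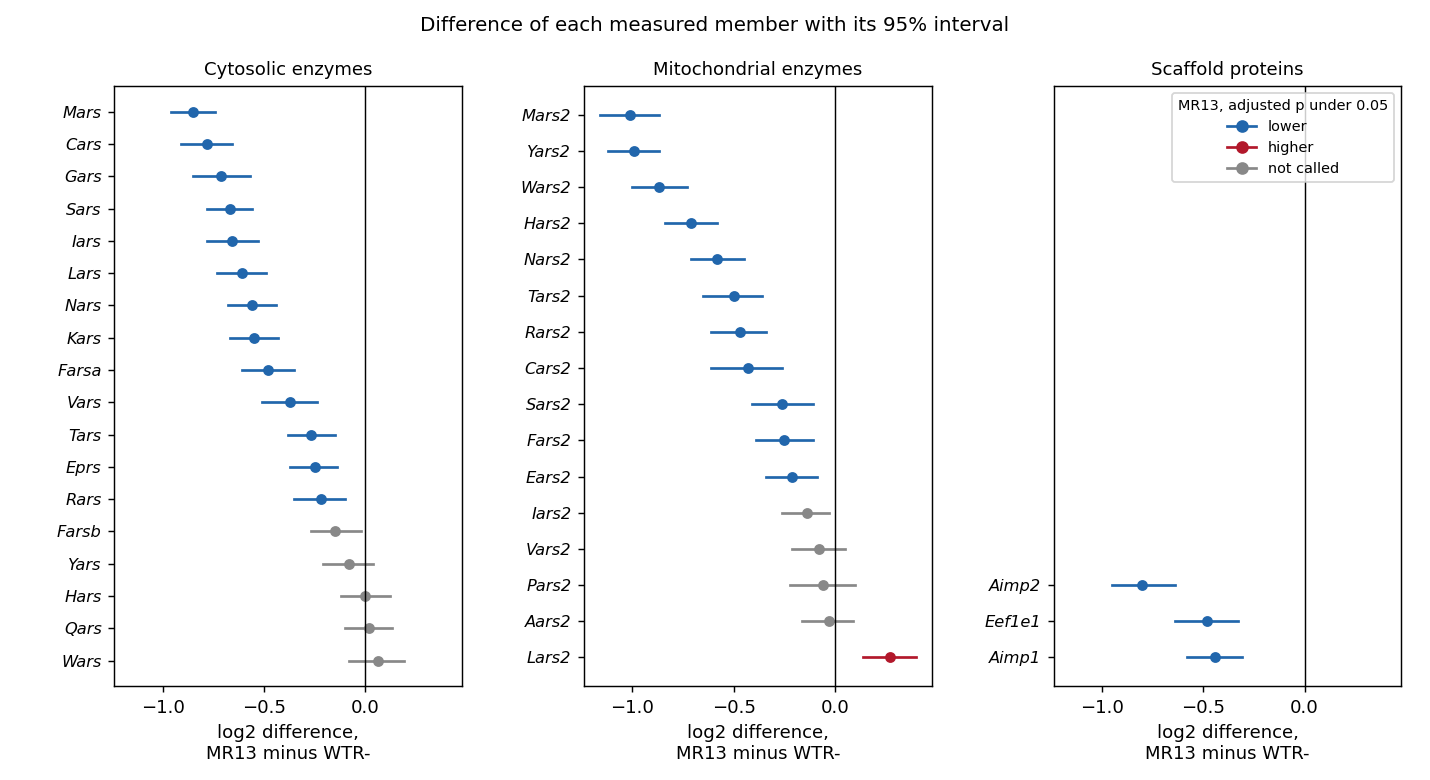
Difference between MR13 and WTR- on the log2 scale for each of the 37 measured genes, by cytosolic, mitochondrial and scaffold class, with 95% confidence intervals from limma. Of these differences 27 were called lower in MR13, Lars2 was the 1 called higher, and Mars2 and Yars2 lay lowest, near -1.

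Among the cytosolic enzymes, 13 of 18 were called lower in MR13, none was called higher and 5 were not called, with a median difference of -0.43. Of these, 7 measured enzymes belong to the multisynthetase complex, and 6 of the 7 were called lower, with a median of -0.55. Mars, the methionyl-tRNA synthetase of the complex, also charges the initiator tRNA. Its log2 signal was 9.81, 9.87 and 9.81 in MR13, against 10.67, 10.66 and 10.7 in WTR-, a 1.8-fold lower level (difference -0.85, SE 0.05, adjusted p = 2.04e-06). Every MR13 array lay far below every WTR- array, and the spread within each line was small beside the gap. Iars, for isoleucine, had 11.02, 10.9 and 10.94 in MR13 and 11.65, 11.61 and 11.58 in WTR- (1.58-fold lower, adjusted p = 1.72e-05). Lars, for leucine, had 10.37, 10.34 and 10.34 in MR13 and 11.03, 10.95 and 10.9 in WTR- (1.53-fold lower, adjusted p = 2.74e-05). The lines did not overlap for either branched-chain enzyme. Iars was the only member with 2 probe sets, and tested separately these gave differences of -0.66 and -0.67.

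Kars, for lysine, supplies both the cytosol and mitochondria. It had 10.85, 10.9 and 10.83 in MR13 and 11.45, 11.38 and 11.39 in WTR-, a difference of -0.55 (SE 0.05, adjusted p = 4.02e-05) with no overlap. The remaining enzymes of the complex moved less. Eprs, a single protein that charges both glutamate and proline tRNAs, differed by -0.25 (adjusted p = 0.00346), and Rars, for arginine, by -0.22 (adjusted p = 0.0113). Qars, for glutamine, was not called: it had 11.52, 11.57 and 11.57 in MR13 and 11.55, 11.56 and 11.51 in WTR-, and the 95% interval of its difference ran from -0.1 to 0.13.

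Outside the complex, 7 of 11 cytosolic enzymes were called lower, with a median of -0.37. Cars, for cysteine, had 9.28, 9.38 and 9.33 in MR13 and 10.17, 10.09 and 10.08 in WTR- (difference -0.78, SE 0.05, 1.72-fold lower, adjusted p = 5.93e-06). Gars, the glycyl enzyme of both compartments, had 10.98, 11.15 and 11.12 in MR13 and 11.82, 11.79 and 11.76 in WTR- (1.63-fold lower, adjusted p = 2.14e-05). Neither gene overlapped between the lines. Sars charges serine, and also loads serine on the selenocysteine tRNA as the first step toward selenocysteine. It had 11.08, 11.14 and 11.14 in MR13 and 11.79, 11.78 and 11.8 in WTR- (1.59-fold lower, adjusted p = 8.67e-06). Nars, for asparagine, had 11.19, 11.23 and 11.15 in MR13 and 11.79, 11.75 and 11.72 in WTR- (1.48-fold lower, adjusted p = 3.21e-05). Both genes were lower in all 3 MR13 arrays than in any WTR- array.

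Smaller differences were called for Farsa (-0.48), the catalytic subunit of the phenylalanyl enzyme, for Vars (-0.37), the valyl enzyme, and for Tars (-0.27), the threonyl enzyme. Tars had 10.07, 10.04 and 10.04 in MR13 and 10.34, 10.28 and 10.33 in WTR- (adjusted p = 0.00223), so a difference of this size was still clear of the spread. Farsb, the partner subunit of Farsa, was not called: its difference was -0.15 (95% interval -0.27 to -0.02, adjusted p = 0.0618), although its MR13 arrays all lay below its WTR- arrays.

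A further 3 cytosolic enzymes were not called. Hars, for histidine, had 9.74, 9.82 and 9.72 in MR13 and 9.78, 9.77 and 9.74 in WTR-, with a 95% interval of -0.12 to 0.12 for the difference. Yars, for tyrosine, had 10.4, 10.53 and 10.42 in MR13 and 10.54, 10.53 and 10.54 in WTR- (interval -0.21 to 0.04). Wars, the tryptophanyl enzyme, which interferon gamma is known to induce, had 10.52, 10.61 and 10.48 in MR13 and 10.55, 10.46 and 10.43 in WTR- (interval -0.08 to 0.19). The lines overlapped for each of the 3. The intervals still allow a small difference in either direction.

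**Figure D2:**
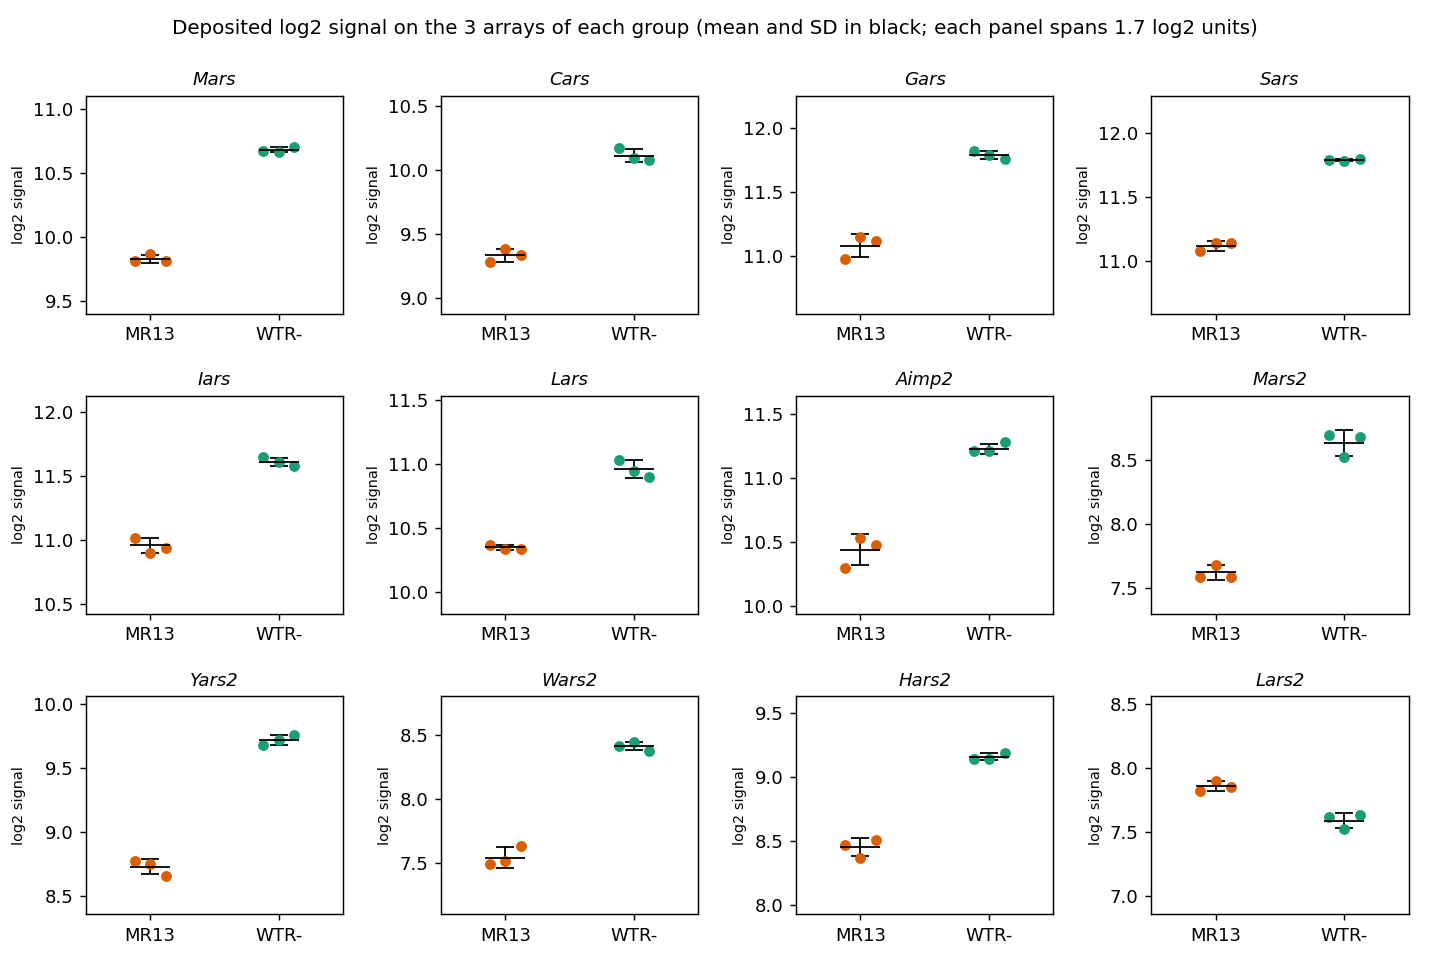
Log2 signal in each array for 12 members, 1 panel each, with MR13 points left of WTR- points and the mean and SD of each line in black (n = 3). The panels are the 11 members called and at least 1.5-fold lower and the 1 called higher. This choice leaves out the 7 members whose lines overlapped. Panels differ in level but span the same number of log2 units: MR13 lay below WTR- without overlap in 11 panels, most widely in Mars2 and Yars2, and above it in Lars2.

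The promoters of the cytosolic enzymes were read for the response element through which ATF4 and C/EBP factors act, alongside those of the other members. The motif TGATGNAA, its stricter form TGATGCAA (a subset of the first) and the E-box CACGTG, which MYC and TFE3 proteins bind, were searched on both strands from 250 bases before to 50 bases after each start site in RefSeq (GRCm38.p6). Of the 37 measured members, 28 had such a promoter there, and as Aars2 and Aimp1 have 2 each there were 30 promoters. TGATGNAA was present in 4 of the 30 (13.3%), against 3.97% of all 32851 promoters, and TGATGCAA in 3 (10.0%), against 0.895%. All 4 matches were in the 11 cytosolic promoters, and none was in the 15 mitochondrial or 4 scaffold promoters. The windows around them are shown because they allow the sequence to be set beside each gene's change, with the element in capitals, 5′ to 3′ on the strand of the gene. Gars lies at chr6:55037941-55038008 on the plus strand, Iars at chr13:49682107-49682174 on the plus strand, Tars at chr15:11399636-11399703 on the minus strand and Yars at chr4:129189876-129189943 on the plus strand.
Gars: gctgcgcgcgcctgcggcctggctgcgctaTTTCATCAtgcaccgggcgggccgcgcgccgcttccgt
Iars: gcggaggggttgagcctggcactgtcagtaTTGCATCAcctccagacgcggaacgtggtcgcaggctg
Tars: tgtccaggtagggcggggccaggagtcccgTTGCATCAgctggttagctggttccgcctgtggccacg
Yars: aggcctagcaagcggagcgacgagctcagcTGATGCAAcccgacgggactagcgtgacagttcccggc

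The element is on the opposite strand in Gars, Iars and Tars, so its reverse complement is in capitals, and on the gene's own strand in Yars. Its first base lies at -30 from the start site in Gars, at -15 in Tars, at 8 in Iars and at 4 in Yars. Of the 4 genes, Gars and Iars differed by -0.71 and -0.66, Tars by -0.27, and Yars was not called. Among the promoters of members called lower, 3 of 22 held TGATGNAA, and among the others 1 of 8 did. CACGTG was found in 4 of 30 promoters (13.3%, against 7.15% of all promoters), those of Iars, Tars, Farsb and Ears2. A match is a stretch of letters and not a shown binding site.

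In the mitochondrial set, 11 of 16 enzymes were called lower in MR13, 1 was called higher and 4 were not called, with a median difference of -0.35. The differences at both ends of the whole range belonged to this set. Mars2, for mitochondrial methionine, had 7.58, 7.68 and 7.58 in MR13 and 8.69, 8.52 and 8.68 in WTR- (difference -1.01, SE 0.06, 2.02-fold lower, adjusted p = 3.44e-06). Yars2, for tyrosine, had 8.77, 8.75 and 8.66 in MR13 and 9.68, 9.72 and 9.76 in WTR- (difference -0.99, SE 0.05, 1.99-fold lower, adjusted p = 1.39e-06). Both were about a full log2 unit lower in each MR13 array. Wars2, for tryptophan, had 7.49, 7.51 and 7.63 in MR13 and 8.41, 8.44 and 8.37 in WTR- (1.82-fold lower, adjusted p = 4.43e-06). Hars2, for histidine, had 8.47, 8.37 and 8.51 in MR13 and 9.14, 9.14 and 9.19 in WTR- (1.63-fold lower, adjusted p = 1.26e-05). Neither overlapped, whereas the cytosolic enzymes for tyrosine, tryptophan and histidine all did.

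Nars2, for asparagine, had 8.45, 8.55 and 8.6 in MR13 and 9.07, 9.13 and 9.15 in WTR- (1.5-fold lower, adjusted p = 5.5e-05). Tars2, for threonine, had 8.92, 9.15 and 9.05 in MR13 and 9.57, 9.55 and 9.52 in WTR- (1.42-fold lower, adjusted p = 0.000267). The MR13 arrays of Tars2 were more spread than its WTR- arrays, yet the highest of them stayed below the lowest WTR- array. Cars2, for cysteine, had 8.77, 8.83 and 8.98 in MR13 and 9.19, 9.4 and 9.29 in WTR-, a difference of -0.43 (SE 0.08, adjusted p = 0.00166). Sars2, for serine, had 8.55, 8.74 and 8.63 in MR13 and 8.93, 8.84 and 8.94 in WTR-, a difference of -0.26 (SE 0.06, adjusted p = 0.0108). Neither overlapped between the lines, though the gap in Sars2 was narrow.

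Rars2, for arginine, differed by -0.47 (adjusted p = 0.000208). Fars2, for phenylalanine, differed by -0.25 (adjusted p = 0.00986) and Ears2, for glutamate, by -0.21 (adjusted p = 0.0112). The calls of Fars2 and Ears2 were lost when the arrays were quantile normalized again (differences -0.16 and -0.14, adjusted p = 0.0587 and 0.0563). Mitochondria have no separate glutaminyl enzyme: Ears2 misloads glutamate on the glutamine tRNA, and an amidotransferase of 3 subunits then converts it. Of these subunits, Qrsl1 (-0.58) and Gatb (-0.26) were called lower and Gatc (-0.01) was not called. Gatb and Gatc were named after their values were seen.

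Lars2, for leucine, was the member that was higher in MR13. It had 7.82, 7.9 and 7.85 in MR13 and 7.62, 7.52 and 7.63 in WTR- (difference 0.27, SE 0.06, adjusted p = 0.00415), and all 3 MR13 arrays lay above all 3 WTR- arrays. Iars2, for isoleucine, was not called at 10.08, 10.02 and 10.01 in MR13 and 10.21, 10.17 and 10.16 in WTR- (difference -0.14, 95% interval -0.26 to -0.03, adjusted p = 0.0554), although the lines did not overlap. Vars2 (difference -0.08), Pars2 (-0.06) and Aars2 (-0.03), for valine, proline and alanine, were not called and overlapped between the lines.

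All 3 scaffold proteins of the multisynthetase complex were called lower in MR13. Aimp2, which holds the complex together, had 10.3, 10.53 and 10.48 in MR13 and 11.21, 11.21 and 11.28 in WTR- (difference -0.8, SE 0.07, 1.74-fold lower, adjusted p = 2.17e-05). Aimp1, the scaffold that binds tRNA and is also secreted, had 9.17, 9.23 and 9.32 in MR13 and 9.64, 9.67 and 9.74 in WTR- (difference -0.44, SE 0.06, adjusted p = 0.000328). Eef1e1, the smallest scaffold, had 10.77, 10.73 and 10.92 in MR13 and 11.23, 11.26 and 11.39 in WTR- (difference -0.48, SE 0.07, adjusted p = 0.000496). No scaffold gene overlapped between the lines.

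For 13 amino acids, a cytosolic enzyme of that amino acid alone and a separate mitochondrial enzyme were measured (Farsa stands for the cytosolic phenylalanyl enzyme). Glutamate and proline were left out of these pairs, as Eprs charges both in the cytosol. Eprs (-0.25) and Ears2 (-0.21) were called lower, and Pars2 (-0.06) was not called. Both enzymes were called lower for 7 of them, only the cytosolic one was called lower for 3 (isoleucine, leucine and valine), and only the mitochondrial one for 3 (histidine, tryptophan and tyrosine). Among the 13 there was no amino acid for which neither was called lower. The mitochondrial minus cytosolic gap within each array was then compared between the lines for the 13 pairs. The gap did not overlap between MR13 and WTR- arrays for 12 pairs. How often the gap of other gene pairs would separate in this way was not computed. Among all 19933 single genes, 5016 lay below and 4428 above in MR13 without overlap. These counts are of single genes and not of gaps between genes, so they cannot show how unusual the count of pairs is. With 3 arrays a line, the two-sided exact permutation test cannot go below p = 0.1, which these 12 pairs reached (0.11 after Benjamini-Hochberg adjustment over the 13), so no single pair could pass the threshold.

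The direction of the gap's change varied with the amino acid. It moved toward the mitochondrial enzyme in MR13 by 0.88 on the log2 scale for leucine, 0.51 for isoleucine and 0.29 for valine, and also by 0.41 for serine, 0.35 for cysteine and 0.22 for phenylalanine. It moved toward the cytosolic enzyme for tryptophan (-0.92), tyrosine (-0.91) and histidine (-0.71), and less for arginine (-0.25), threonine (-0.24) and methionine (-0.17). For asparagine the change was -0.02 (p = 0.8, exact permutation test), with Nars and Nars2 lower by nearly the same amount. In every pair the mitochondrial probe set was the dimmer one, and background can understate differences of dim genes. The part of signal level in these changes was not tested. When the arrays were quantile normalized again, the mitochondrial median was -0.28 instead of -0.35, while the cytosolic median stayed at -0.43.

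**Figure D3:**
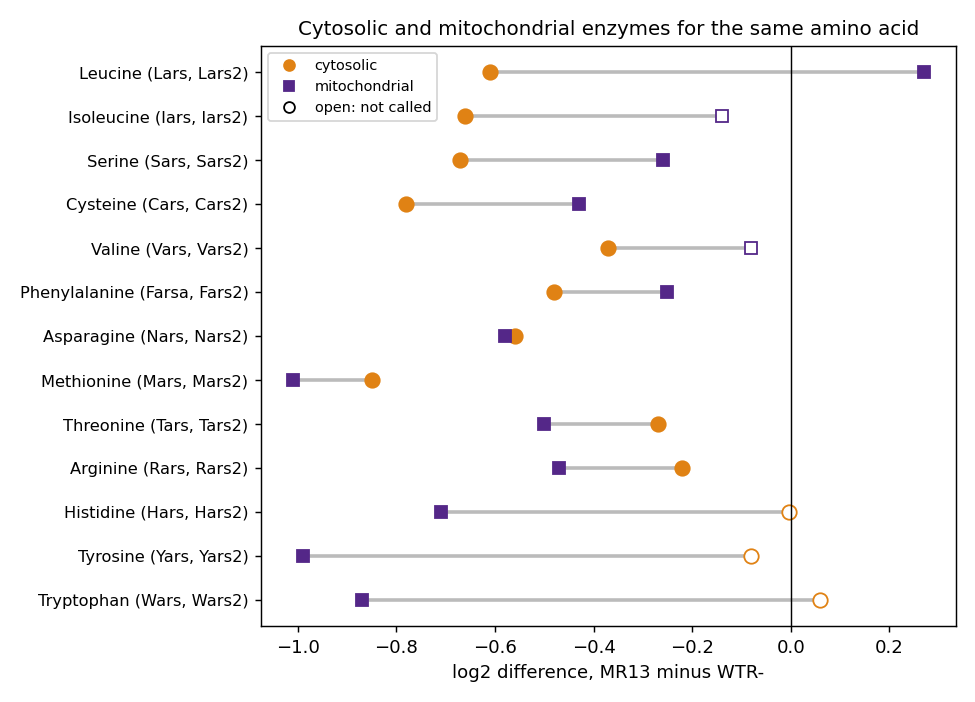
Difference between MR13 and WTR- on the log2 scale for the cytosolic (circles) and mitochondrial (squares) enzyme of 13 amino acids, with open symbols for genes not called. The cytosolic difference was the lower one for leucine (whose mitochondrial enzyme was higher in MR13), isoleucine, serine, cysteine, valine and phenylalanine. For histidine, tyrosine and tryptophan only the mitochondrial enzyme was called lower.

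Synthetases fall into class I and class II by the fold of their catalytic domain. Of 18 class I enzymes, 12 were called lower and 1 higher, with a median difference of -0.4. Of 15 class II enzymes, 11 were called lower and none higher, with a median of -0.48. Eprs, which joins a domain of each class, was left out of this count, and the classes were not tested against each other.

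Genes around tRNA charging were read from the same fit as lists. The counts below stand beside 20.6% of all genes called lower and 17% called higher. With the dimmest 30% of genes left out, 30.2% were called lower. Of 41 genes that mature and modify tRNAs, 31 were called lower and 1 higher, with a median difference of -0.36. Trmt1, which methylates a guanosine in tRNAs, had 9.28, 9.45 and 9.4 in MR13 and 10.6, 10.68 and 10.61 in WTR- (difference -1.26, adjusted p = 6.28e-07). Trnt1, which adds the CCA end to which the amino acid is joined, had 8.05, 7.91 and 8.1 in MR13 and 9.17, 9.1 and 9.32 in WTR- (difference -1.18, adjusted p = 3.32e-06). Xpot, the exporter of mature tRNAs from the nucleus, had 9.79, 9.83 and 9.87 in MR13 and 10.82, 10.87 and 10.91 in WTR- (difference -1.04, adjusted p = 8.5e-07). All 3 were more than 2-fold lower, and the lines did not overlap. Each estimate lay below that of any synthetase, but for Xpot only narrowly. Its 95% interval was -1.16 to -0.92, against -1.16 to -0.87 for Mars2, and the genes were not tested against each other. Mettl1, a guanosine methyltransferase, differed by -0.95. The 1 gene called higher was Trmu (difference 0.6), an enzyme that thiolates mitochondrial tRNAs, named after its value was seen.

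Of 14 other genes for charging, amidation and editing, 7 were called lower and 1 higher, with a median of -0.22. Pstk, the kinase that acts on the serine loaded by Sars on the selenocysteine tRNA, had 7.95, 7.96 and 8.14 in MR13 and 8.94, 8.88 and 9.12 in WTR- (1.96-fold lower, adjusted p = 1.72e-05). Transcripts for the loading step and the kinase step were lower in every MR13 array. Of the same list, and named after their values were seen, Sephs2 was called lower (-0.41) and Sepsecs was not called (0.13). All MR13 arrays of Sepsecs lay above its WTR- arrays. Dtd1, which removes wrongly loaded D-amino acids, differed by -0.42, and Sephs1, a selenophosphate synthetase relative, was higher by 0.52. A list of 13 genes held elongation factors, which carry charged tRNAs to the ribosome or act after them, and Eef2k, the kinase of Eef2. Of these, 6 were called lower and none higher, with a median of -0.13. The 4 with the largest differences were Eif5a2 and Guf1 (-0.73 each), the mitochondrial factor Tsfm (-0.65) and the exchange factor subunit Eef1b2 (-0.32). Of 19 genes of RNA polymerase III and its factors, which transcribe tRNA genes, 9 were called lower and 3 higher, with a median of -0.15. The subunit Polr3g differed by -0.99, Gtf3a by -0.86, Gtf3c6 by -0.72 and Gtf3c5 by 0.85.

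The amino acid response list, which holds Atf4 and genes known to respond to it but no synthetase, had 29 of 38 genes called lower, 5 higher and 4 not called, with a median of -0.56. Gpt2, the mitochondrial alanine transaminase, had 6.82, 7.23 and 7.2 in MR13 and 9.36, 9.38 and 9.42 in WTR- (4.94-fold lower, adjusted p = 4.2e-07). Mthfd2, a mitochondrial folate enzyme, differed by -1.53, Aldh18a1, of proline synthesis, by -1.42, and Pck2, the mitochondrial PEP carboxykinase, by -1.37. The largest differences in this list thus exceeded those of the synthetases. Named after their values were seen, Asns, which makes asparagine, had 11.57, 11.67 and 11.65 in MR13 and 12.65, 12.73 and 12.62 in WTR- (difference -1.04), and Atf4 itself had 9.55, 9.56 and 9.63 in MR13 and 9.92, 9.92 and 10.11 in WTR- (difference -0.4, adjusted p = 0.00111). The list did not move as a block: Cebpb (1.25), Slc7a11 (0.9), the cystine carrier, Vldlr (0.77), Slc1a4 (0.36) and Slc38a2 (0.33) were higher in MR13. ATF4 is controlled largely at translation, which these arrays do not measure.

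Of 21 genes for eIF2 kinases, the exchange factor of eIF2 and amino acid sensing, 7 were called lower and 10 higher, with a median of 0.08. Castor2 (0.77) and Tfe3 (0.63), a transcription factor of the nutrient response, were higher, and the arginine sensor Castor1 (-0.57) and the catalytic exchange factor subunit Eif2b5 (-0.57) were lower. The GCN2 gene Eif2ak4, named after its value was seen, had 7.9, 8.04 and 7.99 in MR13 and 8.32, 8.3 and 8.37 in WTR- (difference -0.35, adjusted p = 0.000931). Both directions were present among these genes. The lists were not tested against each other.

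**Figure D4:**
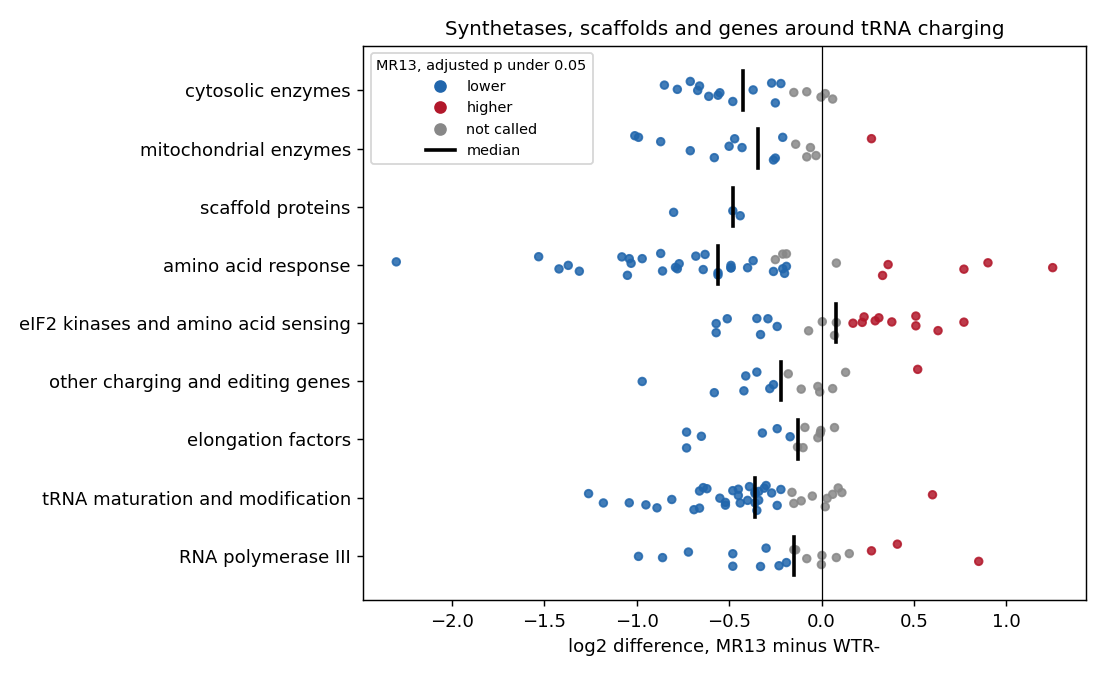
Difference between MR13 and WTR- on the log2 scale for each measured gene of the 3 member classes and 6 surrounding lists, 1 point per gene, coloured by call, with a black bar at each list's median. Medians lie between -0.56 for the amino acid response and 0.08 for the eIF2 kinases and amino acid sensing genes.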

How the data were processed

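Total RNA of 3 MR13 and 3 WTR- samples was hybridised to Affymetrix Mouse Gene 1.0 ST arrays. The deposited values were log2 signals that the authors had normalized between arrays, a scale read from the values, which ran between 2.42 and 14.4. The submitters' processing notes name affy and limma, and their versions, the background correction, summarization and normalization are not given in the sources used here. No detection calls were used, background signal is part of each value and can understate differences of dim genes, and the number of arrays limits the precision.

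Of 28350 probe sets, 21780 had 1 symbol, 1618 had several and 4952 were unnamed here. The brightest probe set with a single symbol stood for each gene (19933 genes). All 37 measured members matched RefSeq by Entrez identifier, Mars as Mars1. Promoters of 9 members (Cars, Hars, Hars2, Lars, Nars, Pars2, Rars, Vars and Wars) were not analysed here. Limma (version 3.58.1, R 4.3.3) compared MR13 with WTR- with no covariate, two-sided, adjusted over all genes by Benjamini-Hochberg. Permutation tests used SciPy 1.17.1. The scripts were tested on simulated data. The value table had 0 columns that belonged to no sample of the series.

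The members and lists were chosen with earlier results of these data known. Values of every array are given for called members differing by at least 0.5, the scaffold proteins and each such member's partner in the other compartment. A few further members and genes have them too, chosen after their values were seen (among them Qars, Asns, Atf4 and Eif2ak4). From each list, the 4 called genes with the largest differences and no overlap were named. The alternatives were quantile normalization again, centring on array medians, leaving out the dimmest 30% of genes, probe sets averaged by gene or tested singly, an intensity trend with a robust prior, a block for replicate number, each array left out, 1.5-fold and 2-fold minimums, and the methods' t-test, which the study gives for comparing groups in general.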

Additional observations from a re-analysis of the deposited data

How the results depend on the processing

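Of the 37 measured members, 33 had the same call and 25 were lower under every alternative that kept the fold unrestricted. Besides Ears2 and Fars2, which were lost under quantile normalization, the changed calls were Farsb and Iars2, each gained under some alternatives. No called difference changed sign. A fold minimum cut the counts most, by its own construction. At 1.5-fold and at 2-fold, the genes called numbered 2193 and 810 (of 7497 without a minimum), members called lower 11 and 1, cytosolic enzymes 6 and 0, mitochondrial enzymes 4 and 1, and scaffold proteins 1 and 0. Likewise, genes called in either direction numbered 21 and 10 for the amino acid response, 2 and 0 for eIF2 kinases and sensing, 1 and 0 for other charging and editing genes, 3 and 0 for elongation factors, 12 and 3 for tRNA maturation and 4 and 0 for RNA polymerase III. The mitochondrial median, -0.35, was -0.28 under quantile normalization, for which the cause was not tested, and ran between -0.39 (without MR13 replicate 3) and -0.31 (without MR13 replicate 1) with 1 array left out. Leaving out each array gave 6716 to 6971 genes called and 27 to 28 members lower.

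The labels number the replicates alike in both lines. Deviations from the line means correlated at r = 0.128, -0.001 and 0.182 between arrays of the same number. Between arrays of different numbers, r ran from -0.197 to 0.053. MR13 replicates 1 and 3 correlated best with their own number and MR13 replicate 2 with another (0.053). As the match was not uniform, the numbers were not taken to pair the samples, and whether they reflect a shared order was not tested. With the replicate number as a block, 7442 genes and 27 members lower were called, and no member's call changed.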
